A study of Mus musculus with 30 samples.

Results

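B-cell identity and co-receptor genes were followed through 8 organs of mice with collagen-induced arthritis (CIA), a model in which immunization with collagen II is followed by an antibody-mediated inflammation of the joints, and of healthy mice. The 9 genes, Cd79a, Cd79b, Ms4a1, Cd22, Pax5, Bank1, Fcer2a, Cr2 and Cd83, were chosen by name with earlier results of these data known. All 9 were found among the 23013 gene rows of the deposited table. The 4 healthy and 4 CIA mice were male DBA1/J mice, aged 8 to 12 weeks in the study's methods. CIA mice received 100 µg bovine collagen II in complete Freund's adjuvant, boosted on day 20 in incomplete adjuvant. The study's methods give an injection of saline for healthy mice. Lymph nodes were the draining nodes. By the study's methods blood stands for mononuclear cells taken from a Lymphoprep gradient, a step that leaves most granulocytes behind, and red cells were lysed in blood, lymph node, spleen and thymus. Arthritis scores were 8 in the CIA mice S1 and S2, 3 to 4 in S6 and 3 in S7. Blood and lymph node were each sampled in 4 healthy (H3, H4, H6, H7) and 3 CIA mice (S2, S6 and S7 for blood, S1, S2 and S7 for lymph node). Joint, lung, muscle, skin, spleen and thymus were sampled in 1 healthy and 1 CIA mouse each, so no test was made there. Each value was obtained by Seq-Well, which captures polyadenylated RNA of single cells in microwells.

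A B cell is set apart by its antigen receptor, in which a membrane immunoglobulin pairs with the signalling chains Cd79a and Cd79b. Co-receptors set how strongly the receptor signals: Cr2 (CD21), which binds complement fragments on antigen, joins Cd81 in an enhancing complex, whereas Cd22 is an inhibitory lectin. Pax5 is the transcription factor that maintains B-cell identity, and it is lost when B cells become plasma cells. In lymphoid organs Fcer2a (CD23) is a feature of mature follicular B cells, and Cr2 of follicular and marginal zone B cells.

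Promoters are shown for Cd22 and Bank1, the members with a match to a motif of a B-lineage regulator. Sequences came from the RefSeq promoter table for GRCm38.p6, 250 bases before to 50 after an annotated start, which held 8 entries for 6 of the 9 genes (Bank1, Cd22, Cd79a, Cr2, Fcer2a and Pax5). Both strands were searched for the EBF1 palindrome (TCCC and GGGA with any 2 bases between), the octamer ATGCAAAT, the PU.1 site GAGGAAGT and the ETS-IRF composite site (GGAA and GAAA with any 2 bases between). Capitals mark the matched letters. The first entry lies at chr7:30878979-30879278 and the second at chr3:136326017-136326316, both on the minus strand and with their start inside the annotated gene.
Cd22: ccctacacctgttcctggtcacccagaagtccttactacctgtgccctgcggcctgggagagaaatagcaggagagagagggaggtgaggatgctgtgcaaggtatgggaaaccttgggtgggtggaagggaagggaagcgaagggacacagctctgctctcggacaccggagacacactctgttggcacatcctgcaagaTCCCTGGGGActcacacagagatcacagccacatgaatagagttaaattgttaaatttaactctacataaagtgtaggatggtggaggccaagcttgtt
Bank1: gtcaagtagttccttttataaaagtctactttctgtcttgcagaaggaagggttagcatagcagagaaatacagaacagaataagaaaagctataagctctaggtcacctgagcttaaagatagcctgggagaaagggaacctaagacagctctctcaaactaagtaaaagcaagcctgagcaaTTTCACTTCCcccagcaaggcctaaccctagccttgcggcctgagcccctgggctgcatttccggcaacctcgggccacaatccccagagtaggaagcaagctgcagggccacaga
The Cd22 entry held the EBF1 palindrome beginning 49 bases before the start, a motif present in 0.904% of all 32851 promoter entries. The Bank1 entry held the ETS-IRF composite site beginning 66 bases before the start, read on the opposite strand, and this motif was present in 2.72% of all entries. The octamer (1.74% of entries) and the PU.1 site (3.20% of entries) were matched in none of the 8 entries.

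The table held 30 libraries of 27 to 934 barcodes and 217494 to 7886790 units, and 4590 of its 8282 barcode profiles were distinct. A unit is 1 transcript count after the study's knn-smoothing, which adds to each barcode its nearest neighbours (k = 12), so units are neither independent molecules nor raw counts, and no counting interval was drawn from them. Levels are given as units per 1000000 units (UPM) of a library or of a mouse's summed libraries in 1 organ. A 0 is reported as listed at 0. The library names end in CIA (13 libraries) or 2CIA (17 libraries), a suffix the labels do not explain. All CIA mice's blood libraries ended in 2CIA, whereas only H3 and 1 of the H4 libraries did so among healthy blood. The blood library of H3 stood apart with 27 barcodes and 7 distinct profiles. In all, 13 barcode sequences occurred in more than 1 library, none of them in blood or lymph node; lung S1 and spleen H6 shared all 13.

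The 9 genes were measured together in spleen, blood and lymph node, where 6 of the 171 library values were listed at 0. In skin all 9 were listed at 0 in both mice. Summed over the 9 genes, the mean level was highest in spleen, at 2332 ± 796 UPM (SD, n = 2 mice), followed by blood at 1911 ± 954 UPM (n = 7) and lymph node at 1378 ± 413 UPM (n = 7). The ranges overlapped between these neighbours, from 1770 to 2895 UPM in spleen, 615 to 3304 UPM in blood and 994 to 2018 UPM in lymph node. By state, blood was at 2302 ± 960 UPM and lymph node at 1326 ± 473 in healthy mice (n = 4 each), and in CIA mice the means were within the spread between mice, at 1390 ± 796 and 1449 ± 404 UPM (n = 3 each). Muscle followed with 1117 UPM in the healthy and 78.0 UPM in the CIA mouse, lung with 570 and 36.4 UPM, and joint with 178 and 39.3 UPM. Thymus had 11.8 and 13.2 UPM, all of it Cd79b and Cd83. In whole-organ sums, fewer B cells and less of these transcripts per B cell cannot be told apart.

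**Figure D1:**
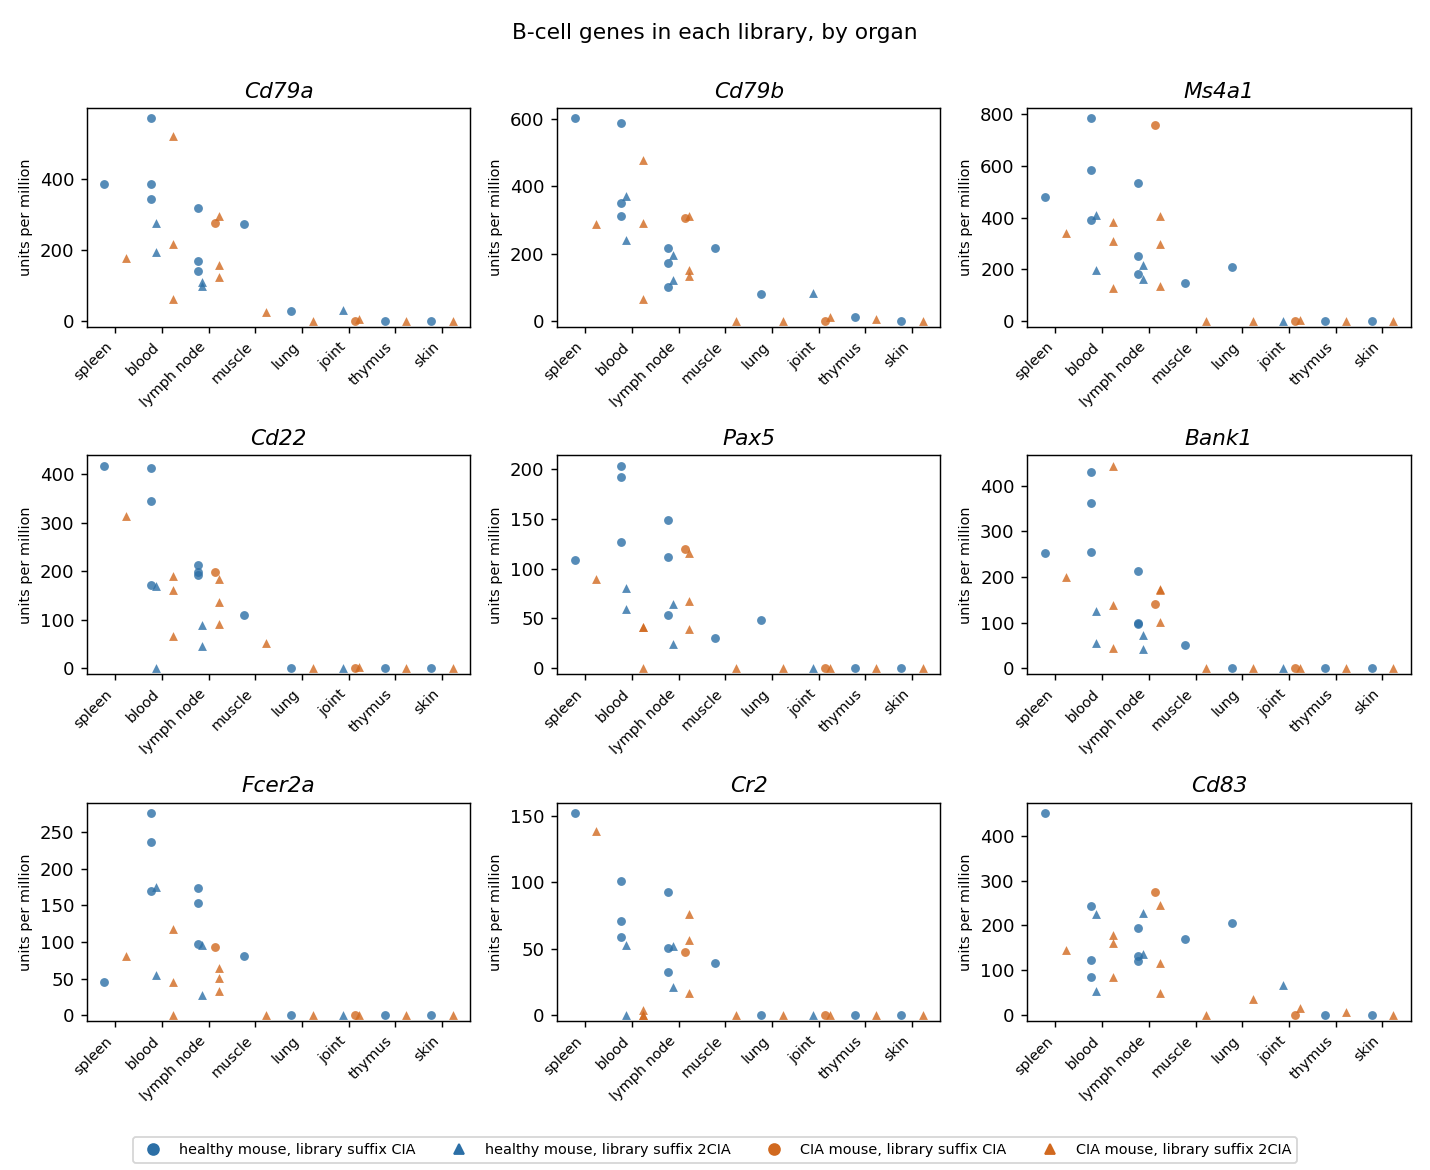
Level of each gene (y axis, UPM, linear, own scale per panel) in each of the 30 libraries by organ (x axis), blue for healthy and orange for CIA mice, circles for the name suffix CIA and triangles for 2CIA. All genes were above 0 in the spleen libraries and in most blood and lymph node libraries, and all were listed at 0 in skin.

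The library suffix went with these levels in blood and lymph node. Libraries that shared a state and mouse number were taken as 1 mouse, whatever their suffix. In the 3 cases where blood or lymph node of 1 mouse had both kinds of library, the CIA-suffix library had the higher sum over the 9 genes: 2072 against 1630 UPM in blood of H4, 1200 against 807 UPM in lymph node of H4, and 2216 against 899 UPM in lymph node of S7. In the joint of S1, where levels were low, the CIA-suffix library had 0 and the 2CIA library 42.3 UPM. Among 2CIA libraries alone the sum in blood was 1369 ± 369 UPM in healthy (n = 2) and 1390 ± 796 in CIA mice (n = 3), and in lymph node 901 ± 132 and 1267 ± 515 UPM. State and suffix cannot be fully told apart in blood, so blood differences within the 2CIA libraries, 2 healthy against 3 CIA mice, stand beside those over all libraries. In spleen, muscle, lung, skin and thymus the healthy mouse had only a CIA-suffix and the CIA mouse only a 2CIA library, so state and suffix cannot be told apart there.

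The receptor chains Cd79a (Entrez 12518, chr7:24897497-24901858) and Cd79b (Entrez 15985, chr11:106311341-106314562) were highest in healthy blood of H7 (Cd79a) and in healthy spleen (Cd79b). Cd79a in healthy blood was 276, 318, 385 and 571 UPM in the mice H3, H4, H6 and H7, and in blood of CIA mice 62.0, 217 and 522 UPM in S2, S6 and S7. Cd79b in healthy blood was 239, 321, 350 and 586 UPM in the same order, and 65.3, 290 and 477 UPM in S2, S6 and S7. S2 was lowest for both chains, and the groups overlapped, with S7 above 3 of the 4 healthy mice for both. The blood differences between CIA and healthy mice were −0.90 ± 0.64 (log2 of UPM + 10, SE) for Cd79a and −0.71 ± 0.64 for Cd79b, within the spread between mice (limma, adjusted p = 0.679 and 0.770). Leaving out S2 brought Cd79a to −0.14 and Cd79b to 0.07, so the differences rested on S2. They were −0.23 and −0.47 within the 2CIA libraries (limma, adjusted p = 0.999 for each).

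In lymph node Cd79a was 109, 125, 170 and 318 UPM in the mice H3, H4, H6 and H7, against 296, 159 and 188 UPM in S1, S2 and S7. Cd79b was 121, 181, 100 and 217 UPM in the healthy and 311, 150 and 205 UPM in the CIA mice. The groups overlapped for both chains, and the differences of 0.31 ± 0.37 and 0.49 ± 0.35 (log2, SE) did not exceed the spread (limma, adjusted p = 0.999 for each).

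Ms4a1 (CD20, Entrez 12482, chr19:11249679-11266149), a membrane protein of B cells from the late precursor stage on and the target of B-cell-depleting antibodies, had the same order of mice as Cd79a within each group in blood. In healthy blood its levels were 198, 395, 585 and 784 UPM in the mice H3, H4, H6 and H7, and in blood of CIA mice 127, 310 and 382 UPM in S2, S6 and S7. In lymph node they were 161, 239, 181 and 533 UPM in the healthy mice and 406, 298 and 394 UPM in S1, S2 and S7. The healthy node of H7 was above every CIA node while the other 3 healthy nodes were below all of them. Neither difference passed the test (limma, −0.79 ± 0.60, adjusted p = 0.702 in blood, and 0.53 ± 0.36, adjusted p = 0.999 in lymph node), and within the 2CIA libraries the blood difference was −0.19 (limma, adjusted p = 0.999).

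Pax5 (Entrez 18507, chr4:44524748-44710694) was the member whose levels in CIA and healthy blood did not overlap. Its level was 59.8, 119, 204 and 192 UPM in the mice H3, H4, H6 and H7, against 41.0 and 41.2 UPM in S2 and S7 and listed at 0 in S6. Every CIA mouse was below every healthy mouse. The H3 level rested on 13 smoothed units, and those of the CIA mice on 76 (S2), 0 (S6) and 25 (S7). The S6 and S7 libraries held 62 and 97 barcodes. Lower blood levels without overlap were seen for 6% of the 4416 genes tested in blood, Pax5 among them. The difference of −2.24 ± 0.90 (log2, SE; 95% interval −4.10 to −0.39) had an unadjusted p of 0.0201 and did not pass the test over all genes (limma, adjusted p = 0.537). Within the 2CIA libraries it was −1.42 (limma, adjusted p = 0.993), and it was −2.58 without H3 and −1.46 without S6. In lymph node no such separation was present: Pax5 was 64.9, 42.2, 111 and 149 UPM in the mice H3, H4, H6 and H7, and 116, 38.9 and 89.2 UPM in S1, S2 and S7.

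Fcer2a (Entrez 14128, chr8:3680280-3694174), the low-affinity IgE receptor, was the one member with an unadjusted p under 0.05 in both organs. In blood it was 55.2, 170, 236 and 276 UPM in the mice H3, H4, H6 and H7, against 45.3 and 117 UPM in S2 and S6 and listed at 0 in S7. S6 was above H3, so the groups overlapped, and the difference of −2.04 ± 0.90 rested largely on S7 (−1.02 without it; limma, unadjusted p = 0.0329, adjusted p = 0.538). The blood difference was −1.41 within the 2CIA libraries (limma, adjusted p = 0.977). In lymph node Fcer2a was 96.3, 71.2, 154 and 173 UPM in the mice H3, H4, H6 and H7, and 50.9, 32.7 and 75.9 UPM in S1, S2 and S7. All CIA nodes but S7 were below all healthy nodes, and S7 lay between H4 and H3. The lymph node difference was −1.06 ± 0.38 (95% interval −1.87 to −0.26), with an unadjusted p of 0.0122 that did not pass the adjustment over 5081 genes (limma, adjusted p = 0.999).

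The suffix moved with this value. Within the 2CIA libraries the lymph node difference of Fcer2a was −0.14 (limma, adjusted p = 0.949). In those libraries Fcer2a was 96.3 UPM in H3 and 28.2 in H4, against 50.9, 32.7 and 64.2 UPM in S1, S2 and S7. Among the CIA-suffix nodes it was 97.7 UPM in H4, 154 in H6 and 173 in H7, against 92.7 in S7, the one CIA mouse there.

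Dividing by the sum of Cd79a and Cd79b of the same mouse and organ, a comparison chosen after the values were seen, set Fcer2a against the receptor chains rather than against all RNA. The ratio in lymph node was 0.418, 0.233, 0.569 and 0.324 in the mice H3, H4, H6 and H7, against 0.0838, 0.106 and 0.193 in S1, S2 and S7. All 3 CIA nodes were below all 4 healthy nodes, at a mean of 0.128 ± 0.058 (SD, n = 3) against 0.386 ± 0.144 (n = 4), given without a test because the ratio was chosen for this pattern. The same ratio was lower without overlap for 4.29% of all 5079 genes compared in lymph node. Of the 14 ratios examined, 7 genes in 2 organs, this was the one without overlap; in blood 0.997% of genes had a lower and 6.98% a higher ratio without overlap, and in lymph node 0.295% a higher one. Within the 2CIA libraries the groups did overlap, since H4 had 0.0962 and S7 had 0.247. In those libraries, 2 healthy against 3 CIA mice, other ratios did not overlap: Bank1 in blood was higher in CIA mice (0.274 to 0.445 against 0.107 to 0.220), as were 11.8% of genes, and Cd83 in lymph node was lower (0.158 to 0.448 against 0.465 to 0.991), as were 18.1% of genes. In blood the ratio was 0.107 to 0.321 in the healthy and 0 to 0.356 in the CIA mice.

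**Figure D2:**
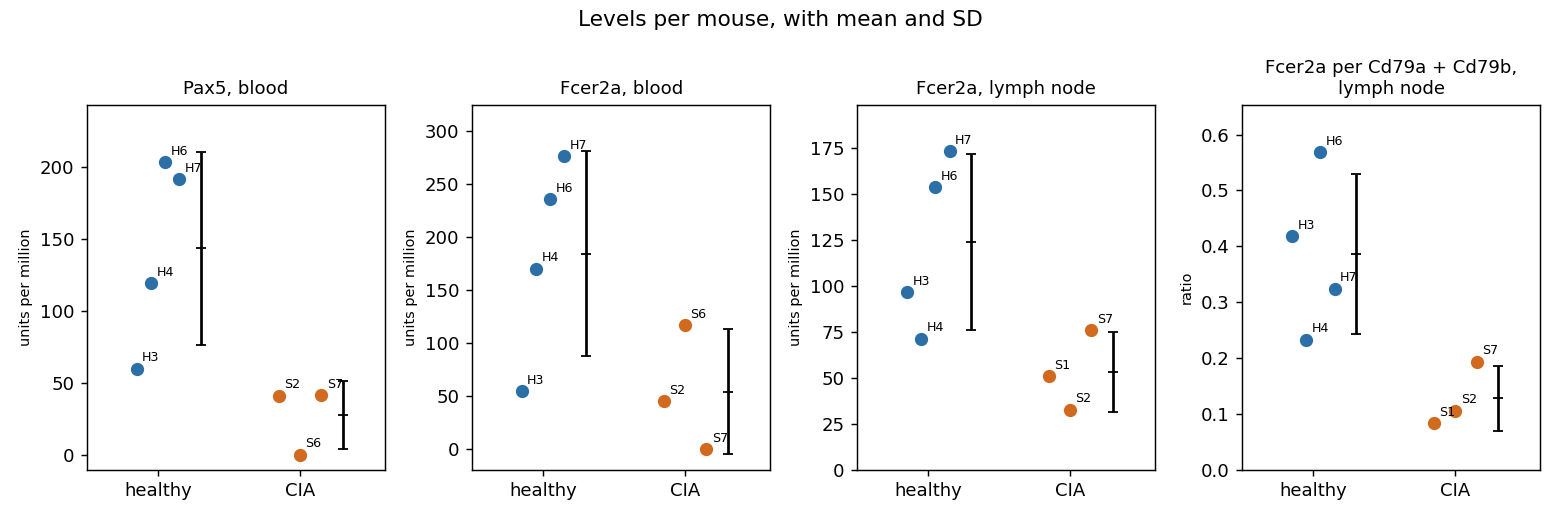
Pax5 in blood, Fcer2a in blood and in lymph node (y axis, UPM), and Fcer2a divided by Cd79a + Cd79b in lymph node (y axis, ratio), one point per mouse with mean and SD beside each group. Every CIA mouse was below every healthy mouse for Pax5 in blood (0 to 41.2 against 59.8 to 204) and for the ratio in lymph node (0.0838 to 0.193 against 0.233 to 0.569), while Fcer2a levels overlapped in both organs.

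Cr2 (Entrez 12902, chr1:195136811-195176880) separated H4, H6 and H7 from all other mice in blood. It was listed at 0 in H3, S6 and S7, and was 3.77 UPM in S2, 57.8 in H4, 70.7 in H6 and 101 in H7. H3 sat with the CIA mice, and the blood libraries of these 4 mice were all 2CIA; the 2CIA library of H4 had 52.6 UPM. The difference of −2.16 ± 0.99 (log2, SE) did not pass the test (limma, unadjusted p = 0.0409, adjusted p = 0.538), and it was −2.93 without H3. In lymph node Cr2 was 51.8, 39.4, 32.7 and 92.4 UPM in the mice H3, H4, H6 and H7, against 76.0, 56.9 and 29.4 UPM in S1, S2 and S7, with a difference of 0.01 ± 0.42. Cr2 had its highest levels in spleen, 152 UPM in H6 and 139 UPM in S1, above every blood and lymph node. Follicular dendritic cells also carry CD21, and their part in the spleen levels was not tested. Of 6 marker genes listed for them 4 were matched, without Cxcl13 and Fdcsp. In spleen Mfge8 alone of the 4 was above 0, at 12.5 UPM in the CIA mouse.

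Cd22 (Entrez 12483, chr7:30865404-30880342) was listed at 0 in blood of H3 and was 171 UPM in H4, 412 in H6 and 345 in H7, against 65.3, 190 and 161 UPM in S2, S6 and S7. The blood difference was 0.10 ± 0.98 and was −1.13 without H3 (limma, adjusted p = 0.987 with H3). It was 1.70 within the 2CIA libraries, where H3 is 1 of 2 healthy mice (limma, adjusted p = 0.958). In lymph node Cd22 ranged from 89.0 to 198 UPM in healthy and from 90.0 to 183 UPM in CIA mice, nearly the same range. Bank1 (Entrez 242248, chr3:136053363-136326141), an adaptor that links the receptor to calcium release, ranged from 55.2 to 430 UPM in healthy and from 44.8 to 445 UPM in CIA blood. Its blood difference was −0.54 over all libraries and 0.72 within the 2CIA libraries (limma, adjusted p = 0.999 within them). In lymph node Bank1 was 72.8 to 213 UPM in healthy and 118 to 173 UPM in CIA mice. Within the 2CIA libraries its lymph node difference was 1.25 (limma, unadjusted p = 0.0153, adjusted p = 0.826), against 0.50 ± 0.38 over all libraries.

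Cd83 (Entrez 12522, chr13:43785112-43803133) is a surface protein of activated B cells that dendritic cells and activated T cells also make. It did not follow the other members in blood (median Pearson's r of −0.30 on the log2 scale over 7 mice). In healthy blood it was 225, 212, 124 and 86.1 UPM in the mice H3, H4, H6 and H7, the reverse of the order for Ms4a1, and in CIA blood 160, 85.4 and 178 UPM in S2, S6 and S7. In lymph node it was 228, 127, 195 and 132 UPM in healthy and 245, 48.8 and 182 UPM in CIA mice. The differences were −0.15 ± 0.66 and −0.30 ± 0.43 (log2, SE; limma, adjusted p = 0.963 and 0.999), and within the 2CIA libraries the blood difference was 0.24. In organs with few member units, units of some members lay on barcodes with no other member above 0. This held for 78.3% of Cd83 units in joint, where Cd79a, Cd79b and Ms4a1 had 24.8% to 29.0% and Cd22 and Bank1 0%. In lung it held for 34.8% of Cd83, 27.3% of Ms4a1 and 0% of Cd79a, Cd79b and Pax5 units, and in thymus for 75% of Cd83 and 93.2% of Cd79b units.

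In blood, 8 of the 9 members had a difference below 0. The ninth, Cd22, was at 0.10, and at −0.54 and −0.24 with a trimmed mean of log ratios and with the median of ratios, scalings that moved the median of all genes from −0.10 to −0.55 and −0.37. The median over members was −0.79, against −0.10 over all genes tested. None of the 9 passed the test, where 0.362% of the 4416 genes did, all of them higher in CIA blood. An unadjusted p under 0.05 was found for 3 members (Pax5, Fcer2a and Cr2) and for 9.13% of all genes. Within the 2CIA libraries, 5 of the 8 members that could be tested were below 0 and 3 above, with a median of −0.21 against 0.34 over all genes. The blood libraries also differed in markers of cells that the gradient and the lysis are meant to remove: the 8 neutrophil markers summed to 5235 to 72887 UPM in CIA and 1591 to 5320 UPM in healthy blood. The 14 T-cell markers summed to 100 to 279 UPM in CIA and 380 to 1064 UPM in healthy blood. All 8 neutrophil markers were above 0 in CIA blood, with Ly6g at 0 in healthy blood, while Cd4 was at 0 in CIA blood. Haemoglobin genes took 3.75% to 52.4% of units in healthy and 5.98% to 38.3% in CIA blood. The part of these cells in the differences of the members was not tested, other than by leaving haemoglobin units out of the total, after which 8 of 9 members were again below 0.

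In lymph node, 5 members were above 0 and 4 below, with a median of 0.01 against 0.05 over all 5081 genes. Among the 2CIA libraries alone, 7 were above 0 and 2 (Fcer2a and Cd83) below, with a median of 0.43 against 0.04 over all genes. None passed the test, where 0.0197% of genes did, and 1 member (Fcer2a) and 3.96% of genes had an unadjusted p under 0.05. Neutrophil markers summed to 448 to 1971 UPM in CIA and 28.0 to 3140 UPM in healthy nodes, and T-cell markers to 1871 to 2474 UPM in CIA and 1997 to 3710 UPM in healthy nodes. The interaction of organ and state, the lymph node difference minus that in blood, was largest for Cr2 (2.17 ± 1.05) and Pax5 (2.11 ± 0.96, unadjusted p = 0.0395), and no member passed the test (limma, adjusted p = 0.635 and 0.600), as 0% of the 4810 genes did; 7.82% had an unadjusted p under 0.05.

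Between organs of the same healthy mice, the receptor chains had lower mean levels in lymph node than in blood. Cd79b levels did not overlap, at 100 to 217 UPM in the nodes and 239 to 586 UPM in blood, and Cd79b was lower in the node than in the blood of the same mouse in all 4 mice, as was Cd79a. A lower level without overlap in the node was seen for 1.54% of 5015 genes. The differences were −1.21 ± 0.42 for Cd79b and −1.13 ± 0.42 for Cd79a (log2, SE), against a median of 0.41 over all genes. Neither passed the test (limma, unadjusted p = 0.00892 and 0.0148, adjusted p = 0.135 and 0.157), which 2 genes or 0.0399% did; 19% of all genes had an unadjusted p under 0.05. With the mouse as a block these were adjusted p = 0.151 and 0.160, and 0 genes passed. Both differences were lower still, −1.58 and −1.50, when haemoglobin units were left out of the total. All 14 T-cell markers were above 0 on the log2 scale in this comparison, with a median difference of 1.62, and their part in the differences of the receptor chains was not tested. Cd22, Cr2 and Cd83 had small differences (0.32, 0.28 and 0.12) that turned below 0 under trimmed-mean and median-of-ratios scaling.

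**Figure D3:**
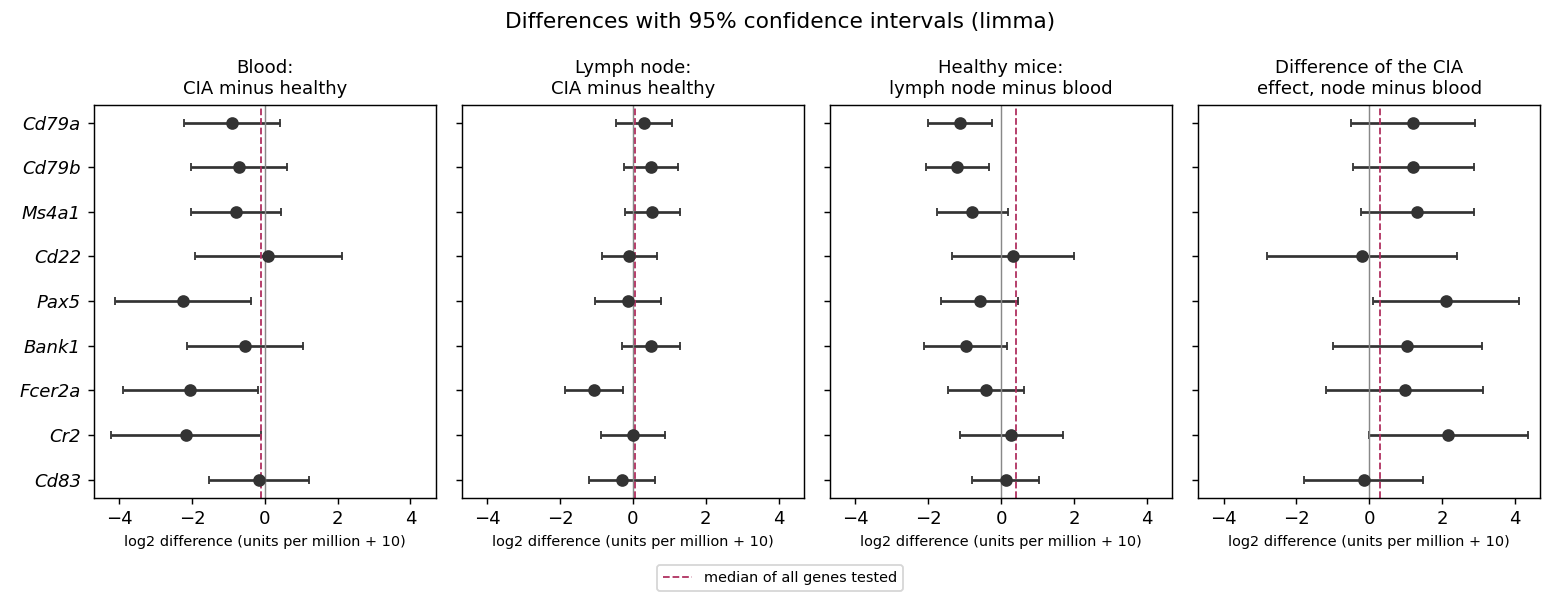
Log2 difference in UPM + 10 (x axis) of each gene (y axis) in the 4 comparisons, points with 95% confidence intervals from limma, and the dashed line at the median of all genes tested. In blood the intervals of Pax5, Fcer2a and Cr2 lay below 0 before adjustment, as did that of Fcer2a in lymph node. Between healthy organs those of Cd79a and Cd79b lay below 0, and in the interaction that of Pax5 lay above 0. None passed the adjusted threshold.

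In spleen all 9 genes were above 0 in both mice, and 3 were past 2-fold lower in the CIA mouse on the UPM + 10 scale, as were 23.3% of the 5753 genes with a mean of 25 UPM or more. Cd79a was 386 UPM in H6 and 176 in S1, Cd79b 600 and 286, and Cd83 451 and 144. Fcer2a had the opposite order, with 45.6 UPM in H6 and 81.4 in S1. The S1 spleen held 98019 UPM of neutrophil and 92579 UPM of erythroid markers, against 4403 and 589 UPM in H6. Haemoglobin genes took 9.15% of S1 units, and without them in the total only 1 member was past 2-fold lower. With the full total Cd79a and Cd79b were close to the 2-fold limit, at log2 ratios of −1.09 and −1.04. The part of neutrophils and red cells in the spleen differences was not tested. These values compare single mice that also differ in suffix, and have no replicate check.

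Muscle of the single healthy mouse had more of the members above 0 than that of the single CIA mouse, in libraries of 3333298 and 423083 units with 8453 and 7408 of all genes above 0. All 9 genes were above 0 in H6, with Cd79a at 273 UPM, Cd79b at 217, Cd83 at 171 and Ms4a1 at 146. In S1 Cd22 was 52.0 UPM and Cd79a 26.0 UPM, and the other 7 were listed at 0. The S1 library had 54 barcodes against 421 in H6, and in the H6 muscle the 8 neutrophil markers (105258 UPM) and 13 of 14 T-cell markers (657 UPM in all) were above 0 as well, against 18630 and 47.3 UPM in S1. Their part in the difference was not tested. In lung Ms4a1 was 207 UPM, Cd83 205, Cd79b 79.6, Pax5 48.2 and Cd79a 29.3 in H6, and only Cd83, at 36.4, was above 0 in S1; of all genes 7099 and 5037 were above 0 in these libraries of 477553 and 1180747 units.

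Both joints held little of these genes. In H3 Cd79b was 81.9 UPM, Cd83 66.6 and Cd79a 30.001, with the other 6 listed at 0. In S1, over both libraries, the highest were Cd83 at 15.0 UPM and Cd79b at 10.9, and its CIA-suffix library had all 9 at 0. Pax5, Fcer2a and Cr2 were listed at 0 in both joints, and no joint barcode had 5 or more members.

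Barcodes were also counted by how many members were above 0. Smoothing over neighbours itself puts more genes above 0 on a barcode, so these counts do not show that members occur together in cells. In healthy blood of H4, H6 and H7, 91.8% to 94.97% of barcodes had 5 or more of the 9 genes above 0, against 44.4% in H3. In CIA blood the share was 49.1% in S2, 58.1% in S6 and 51.5% in S7, below all healthy mice but H3. All CIA blood libraries were 2CIA, and within that suffix the healthy shares were 44.4% in H3 and 85.3% in H4, on both sides of the CIA shares. Shares in lymph node ran from 40.9% to 86.3% in healthy and from 37.1% to 76.2% in CIA mice. In spleen they were 91.0% in H6 and 76.3% in S1, in healthy muscle 39.7%, and 0% in CIA muscle and in lung, joint, thymus and skin. Smoothing adds neighbours together, so these shares are not shares of B cells: in the 7 lymph nodes the barcodes with 5 or more members also held 1523 to 3782 UPM of T-cell markers, and the 4 to 30 barcodes without a member, found in 5 nodes, held 2579 to 3852 UPM.

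**Figure D4:**
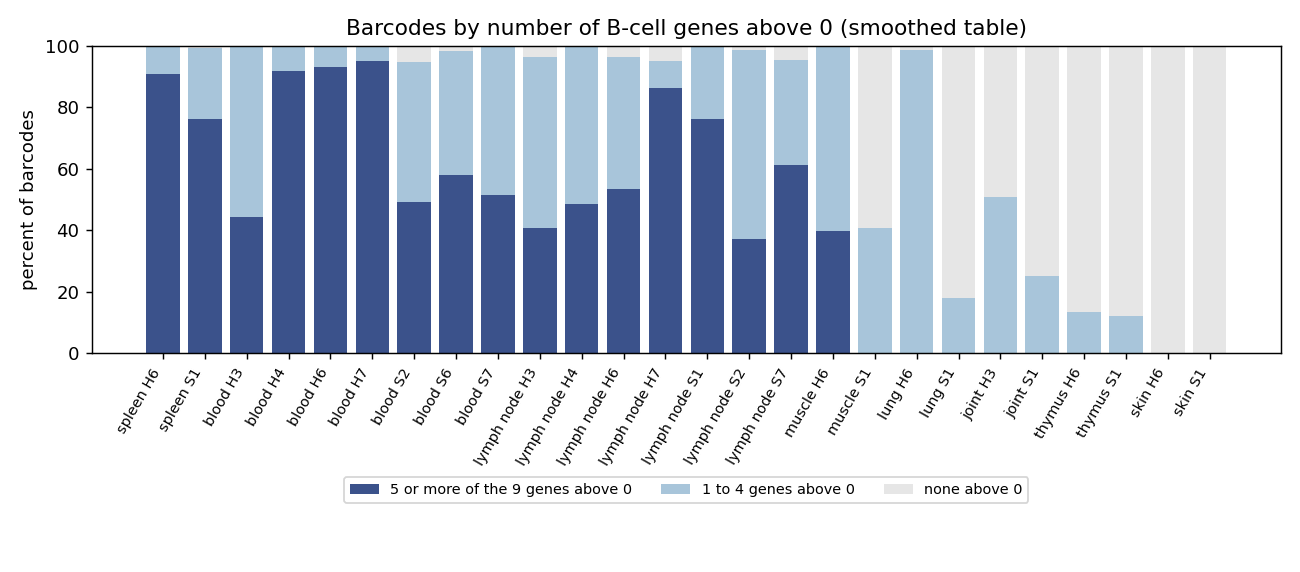
Percent of barcodes (y axis) with 5 or more, 1 to 4 or none of the 9 genes above 0 for each organ and mouse (x axis), in the smoothed table. Healthy blood of H4, H6 and H7 reached 91.8% to 94.97% with 5 or more, H3 44.4% and CIA blood 49.1% to 58.1%, and no barcode of CIA muscle, lung, joint, thymus or skin had 5 or more. All CIA blood libraries had the suffix 2CIA, within which the healthy shares were 44.4% and 85.3%.

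Within the B-cell-rich organs the members did not all vary together. Over the 16 mouse sums of blood, lymph node and spleen, Pearson's r between members on the log2 scale had a median of 0.36, from −0.18 to 0.90, where the sums share mice and differ in depth and haemoglobin. The highest value was between Cd79a and Cd79b, and the next, 0.87, between Ms4a1 and Bank1. Cd83 had a median r of 0.02 with the other 8, and Fcer2a of 0.17. Over all 26 sums, which include the organs with members at or near 0, the median was 0.81.

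The 5 genes most like the mean of the members over the 26 sums, of 5408 compared, included the lambda constant genes Iglc2 (r = 0.97) and Iglc3 (r = 0.96), Ighd, the IgD heavy chain of mature naive B cells (r = 0.94), and H2-DMb2, a class II peptide-loading chain (r = 0.92). Over the 16 sums of blood, lymph node and spleen these values were 0.83, 0.67, 0.71 and 0.68. Iglc2 and Iglc3 are near-identical copies, so the split of reads between them is uncertain. Iglc2 was 1777 ± 1052 UPM in healthy and 822 ± 585 in CIA blood, a difference of −1.34 ± 0.63 (limma, adjusted p = 0.538).

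Of 63 other genes of the receptor pathway and of B-cell regulation, all in the table, 47 were tested in blood, 42 in lymph node, 47 between healthy organs and 44 for the interaction, and none passed the test in any; an unadjusted p under 0.05 was found for 8, 3, 8 and 4 of them, and for 9.13%, 3.96%, 19% and 7.82% of all genes in the same comparisons. In blood 35 were below and 12 above 0, with a median of −0.89 against −0.10 over all genes. The co-receptor partner Cd81 was 39.3 ± 39.6 UPM in healthy and 26.5 ± 23.8 in CIA blood. Among 10 tested signalling genes 8 were below 0 in blood (median −1.15); the adaptor Grb2 was 193 ± 95.7 UPM in healthy and 83.3 ± 72.6 in CIA mice, whereas the kinase Lyn, also made by myeloid cells, was 130 ± 53.4 and 215 ± 70.9 UPM. Among 5 inhibitory genes 3 were above 0 (median 0.30), with the phosphatase Ptpn6 at 91.7 ± 69.2 and 98.9 ± 22.2 UPM and the receptor Cd72 at 93.9 ± 34.8 and 69.7 ± 98.8.

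Among 11 transcription factors 7 were below 0 in blood (median −0.39), with Foxp1 at 566 ± 136 UPM in healthy and 460 ± 208 in CIA mice and Id3 at 292 ± 170 and 185 ± 106. Among 10 survival and homing genes 9 were below 0 (median −1.17); Ltb, the lymphotoxin chain that B and T cells use to shape lymphoid tissue, was 399 ± 145 and 188 ± 96.0 UPM. Of 8 other B-cell genes 7 were below 0 (median −1.46). Ly6d was 522 ± 151 and 338 ± 203 UPM and Mef2c 320 ± 216 and 330 ± 166. Not all listed genes followed the members across organs. In healthy mice Ly6d was 1905 UPM in skin and 752 UPM in thymus, where members were at or near 0. Id3 was 1185 UPM and Cd81 435 UPM in healthy joint. In lymph node these lists had medians from −0.31 (inhibitory genes) to 0.08 (co-receptor complex), against 0.05 over all genes, with 26 of 42 genes below 0. Ly6d was lower in healthy lymph node than in healthy blood, at 209 ± 61.0 against 522 ± 151 UPM, but this did not pass the test (−1.27 ± 0.38; limma, unadjusted p = 0.00347, adjusted p = 0.117).

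Plasma-cell markers stood beside these values. Of 8 markers, 3 were above 0 in CIA blood and 6 in healthy blood, with Jchain, Prdm1, Sdc1, Tnfrsf17 and Derl3 at 0 in CIA blood, and their sums were 171 to 379 and 321 to 408 UPM. In lymph node 4 and 5 were above 0, at 241 to 445 UPM in CIA and 85.8 to 282 UPM in healthy mice. None of the plasma-cell genes tested passed in either organ (limma, 3 tested in blood and 4 in lymph node).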

How the data were processed

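Single-cell RNA was measured by Seq-Well in 30 libraries of 8 organs of 4 healthy and 4 CIA mice. The authors converted and tagged reads (bcl2fastq, Picard, Drop-seq tools), aligned them with STAR and knn-smoothed the pilot libraries (k = 12). The study's methods name GRCm38 as the reference, whereas the submitters' processing notes name mm9 and GRCh38. The deposited values are a smoothed signal of whole-number units per gene and barcode, not raw counts, so no count model was used. Entrez identifiers were matched to RefSeq GRCm38.p6 symbols for 21404 of 23013 rows, and rows without a symbol held 3.39% of units. No barcode column was left without a sample.

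Units were summed per mouse and organ, scaled to a total of 1000000 (UPM), and tested as log2(UPM + 10) with limma 3.58.1 in R 4.3.3. Genes under a mean of 25 UPM were left out, which removed no member in any comparison (mean-variance trend, two-sided, Benjamini-Hochberg adjustment over all genes tested, threshold 0.05). A fold on this scale understates changes of low genes. The mouse was the replicate. In organs with 1 mouse per state, 2-fold on the UPM + 10 scale was counted, without a test. The fits were tested on simulated data. Lists, members and tests were chosen with earlier results of these data known. All members were described. From each other B-cell list the 2 genes with the highest mean were named, with any gene passing the test, and the 5 genes most correlated with the members' mean. Some genes that this rule names are not reported here. The ratio to Cd79a + Cd79b was added after the data were seen, and so were the choices of which members to describe at length.

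Blood and lymph node libraries with the same mouse number and state were taken to come from the same mouse, whatever their suffix. The correlation of their deviations from the group means over 4810 genes was 0.06 in H6 and 0.18 in H7, and ran from −0.26 to −0.01 in H3, H4, S2 and S7, so the block rests on the labels. Haemoglobin, scaling, pseudocount, filter, variance trend, repeated profiles, suffix, single mice and the mouse block were varied.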

Additional observations from a re-analysis of the deposited data

How the results depend on the processing

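No member passed the adjusted threshold in any comparison under any of the settings tried, and of the members' values under these settings 492 kept their direction and 46 turned. Depth, smoothing and 3 or 4 mice per group limit what could be seen: the 95% interval of Cd22 in blood ran from −1.92 to 2.12, so a missed threshold does not show equal levels. Normalization moved the median of all genes in blood from −0.10 to −0.55 (trimmed mean of log ratios) and −0.37 (median of ratios, or no haemoglobin), and members are best read against it. In the 2CIA libraries of blood Cr2 fell under the minimum mean and was not tested, nor was it without H7.

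The number of genes passing in blood was 16, and it was 6 with a trimmed mean of log ratios, 3 with a pseudocount of 1, 0 without a mean-variance trend, and 0 to 21 leaving out 1 mouse. In lymph node 1 passed, against 9 without a filter, 0 without a trend, 3 in 2CIA libraries and 1 to 7 leaving out 1 mouse. Between healthy organs 2 passed, against 92 with each distinct profile counted once, 0 with a pseudocount of 1, without a trend, in 2CIA libraries and with the mouse as replicate block, and 0 to 283 leaving out 1 mouse (283 without H6). The interaction had 0, or 0 to 3 leaving out 1 mouse. The block changed no other call. In spleen 3 members were past 2-fold lower, and 1 with haemoglobin left out; in thymus 0 were, and 1 with a pseudocount of 1, though no member there reached a mean of 25 UPM.

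Signs turned for some members, among them Bank1 (−0.54) and Cd79b (−0.71) in blood and Fcer2a in the interaction (0.98), and the cause was not tested. In blood Cd22 was −0.54 with a trimmed mean and −0.24 with the median of ratios, Cd83 0.19 with distinct profiles and 0.24 in 2CIA libraries, and Bank1 0.72 in 2CIA libraries. In lymph node Cd22 was 0.92 and Pax5 0.62 in 2CIA libraries, and Cr2 was −0.0076 with the median of ratios, −0.046 without haemoglobin and −0.17 with distinct profiles. Between healthy organs a trimmed mean gave Cd22 −0.13, Cd83 −0.20 and Cr2 −0.13, the median of ratios gave −0.049, −0.18 and −0.053, and leaving out haemoglobin gave Cd83 −0.24. The interaction with a trimmed mean was 0.22 for Cd22 and 0.15 for Cd83.

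Leaving out 1 mouse gave, in blood, Bank1 −1.32 to 0.21, Cd22 −1.13 to 0.67, Cd79b −1.28 to 0.069 and Cd83 −0.40 to 0.15. In lymph node it gave Cd22 −0.34 to 0.18, Cd83 −0.72 to 0.33, Cr2 −0.24 to 0.33 and Pax5 −0.42 to 0.26. Between healthy organs it gave Cd22 −0.67 to 0.77, Cd83 −0.040 to 0.40 and Cr2 −0.50 to 0.69. For the interaction it gave Cd22 −0.65 to 0.79, Cd83 −0.57 to 0.60 and Fcer2a −0.30 to 1.79.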
